A study of Mus musculus with 4 samples.

Results

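The genes described here are the FGF4-ERK signalling and feedback genes of mouse embryonic stem (ES) cells: the ligand gene Fgf4, the receptor genes Fgfr1 and Fgfr2, and the ERK-responsive genes Dusp4, Dusp6, Spry2, Spry4, Etv4, Etv5 and Egr1. They were chosen by symbol, and all 10 of 10 were found among the 24054 genes of the count tables and were among the 13267 genes that passed the filter on low counts. RNA was sequenced from 1 wild-type library, of the ES cell line wt26, and from 3 Morc3 rescue libraries, of the lines T131-3C, T131-3D and T131-3M, called clones 3C, 3D and 3M here. Each rescue line is a single clone derived from KO27-2, itself 1 Morc3 ko clone of wt26, so the 3 clones share the ko allele and a single founder. Morc3, an ATPase of chromatin, was put back in them with a PiggyBac transposon in which the human PGK promoter drives Morc3 joined to a puromycin resistance gene, and the clones were isolated under puromycin selection. All cells, wild type included, grew without feeders on gelatin in medium with serum and LIF. The comparison asked whether the rescue clones differed from wild type in these genes. No Morc3 ko library was analysed here, and nothing in the labels says whether the 4 libraries were prepared together.

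FGF4 is a growth factor that ES cells make themselves. It binds FGF receptors together with heparan sulphate, and the receptors switch on the Ras, Raf, MEK and ERK kinases in turn. ERK then raises the transcription of immediate-early genes such as Egr1, of the Ets factors Etv4 and Etv5, and of genes whose products dampen the pathway, such as the Sprouty proteins and the dual-specificity phosphatases. In ES cells this pathway is known for moving cells out of naive pluripotency, whereas LIF holds them in it, and in the early embryo it directs cells of the inner cell mass to primitive endoderm.

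Fgf4 is a textbook target of the pluripotency factors Oct4 and Sox2, which bind side by side to an enhancer in its 3′ untranslated region. That element is printed because it ties the ligand to the ES cell state. A search of 141767 GENCODE transcripts of 55450 genes, on both strands, looked for the Sox letters CTTTGTT, any 3 bases, and an octamer ATGNNAAT with A or C and then A or T at the open positions. It found the pattern in 1 gene, Fgf4, at chr7:144864394-144864411 on the plus strand of GRCm38, in exon 3 of 3 and 1456 bases past the last coding base. The capitals mark the Sox letters and the octamer.
Fgf4 element: CTTTGTTtggATGCTAAT

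Promoter windows of RefSeq (build GRCm38.p6, from 250 bases before to 50 after the start of transcription) are shown for Fgf4 and Etv5, the 2 genes of the set whose level was above wild type in every clone. The Fgf4 window is chr7:144861136-144861435 on the plus strand, and the Etv5 window, the one of 2 starts that lies farther upstream, is chr16:22439521-22439820 on the minus strand. Both are written 5′ to 3′, with the GC box GGGCGG and the CCAAT box in capitals wherever they stand on either strand. A CCAAT box on the opposite strand reads ATTGG.
Fgf4 promoter: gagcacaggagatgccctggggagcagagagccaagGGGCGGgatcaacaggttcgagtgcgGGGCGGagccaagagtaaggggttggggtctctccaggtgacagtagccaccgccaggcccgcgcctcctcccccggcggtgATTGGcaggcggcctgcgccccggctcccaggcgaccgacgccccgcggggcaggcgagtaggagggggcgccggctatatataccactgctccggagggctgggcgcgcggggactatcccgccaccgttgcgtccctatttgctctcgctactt
Etv5 promoter: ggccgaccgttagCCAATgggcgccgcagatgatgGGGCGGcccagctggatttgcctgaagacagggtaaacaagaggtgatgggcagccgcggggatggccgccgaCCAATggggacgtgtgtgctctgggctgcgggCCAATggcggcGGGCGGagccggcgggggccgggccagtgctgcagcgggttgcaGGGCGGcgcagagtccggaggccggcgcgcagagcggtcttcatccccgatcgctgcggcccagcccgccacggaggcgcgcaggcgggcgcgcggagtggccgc

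The Fgf4 window was 69.7% G and C and held 2 GC boxes and 1 CCAAT box, and the Etv5 window was 74% G and C and held 3 of each. Among the 32851 windows of all promoters, 35.7% held a GC box and 37.4% a CCAAT box. The window of Dusp6 held 1 CCAAT box and no GC box, those of Spry2 and Fgfr2 held neither, and the second Etv5 start had 1 CCAAT box. In these 6 windows, over 5 genes, neither strand held the Ets core CCGGAAG, the AP-1 site (TGANTCA with C or G at the open position), the cyclic AMP response element TGACGTCA, the octamer ATGCAAAT or the CArG box, which is bound by serum response factor. Of all promoters, 8.86%, 5.2%, 1.79%, 1.74% and 1.63% held them, respectively. The windows of Fgfr1, Dusp4, Spry4, Etv4 and Egr1 were not searched. These are matches of letters only.

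The libraries held between 13620914 and 18789457 read pairs assigned to genes, the most in wild type. Unmapped read pairs made up 14.5% of wild type and between 21.0% and 23.0% of the clones. Levels are given as CPM, the counts per 1000000 read pairs on genes, scaled by TMM factors that even out differences in composition between libraries. Morc3 itself was at 161 CPM in wild type and at 655, 496 and 609 CPM in clones 3C, 3D and 3M, so every clone was above wild type (log2 fold change 1.87, SE 0.17, edgeR adjusted p = 0.108). Its count sums reads of the endogenous gene and of the transgene. On chromosomes 13 and 14 the genes had median log2 fold changes of 0.35 and 0.35, against 0.01 for all tested genes, and Spry2 is the 1 gene of the set that lies on either. All 16 defining ES cell markers were detected in every library, with a summed level of 6450 CPM in wild type, and in the clones it ran from 6920 to 7400 CPM. The highest was Tfcp2l1, a naive pluripotency factor, at 1225 CPM in wild type against 1319, 1655 and 1401 CPM in clones 3C, 3D and 3M.

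None of the 10 genes differed between the rescue clones and wild type at the adjusted p threshold of 0.01 in edgeR's quasi-likelihood test. With 1 wild-type library, the spread in this test came from the 3 clones, and wild type was assumed to vary as they do. An exact permutation test of 1 library against 3 cannot go below p = 0.25, so none was used. Over all tested genes 0.00754% were called, which is 1 gene, Ddx3y, a Y-linked RNA helicase gene named here after its value was seen. At an unadjusted p under 0.05, the set had 1 gene higher in the clones, Fgf4, and 1 lower, Dusp4, where 5.92% of all tested genes were higher and 4.42% lower. In 2 of the 10 genes, Fgf4 and Etv5, every clone was above wild type, and in 2, Dusp4 and Spry4, every clone was below it. Over all tested genes these shares were 28.7% and 28.4%. In the other 6 genes the wild-type value lay within the range of the clones. The median log2 fold change of the set was −0.08, and by clone it was 0.03 in 3C, −0.16 in 3D and −0.18 in 3M.

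**Figure D1:**
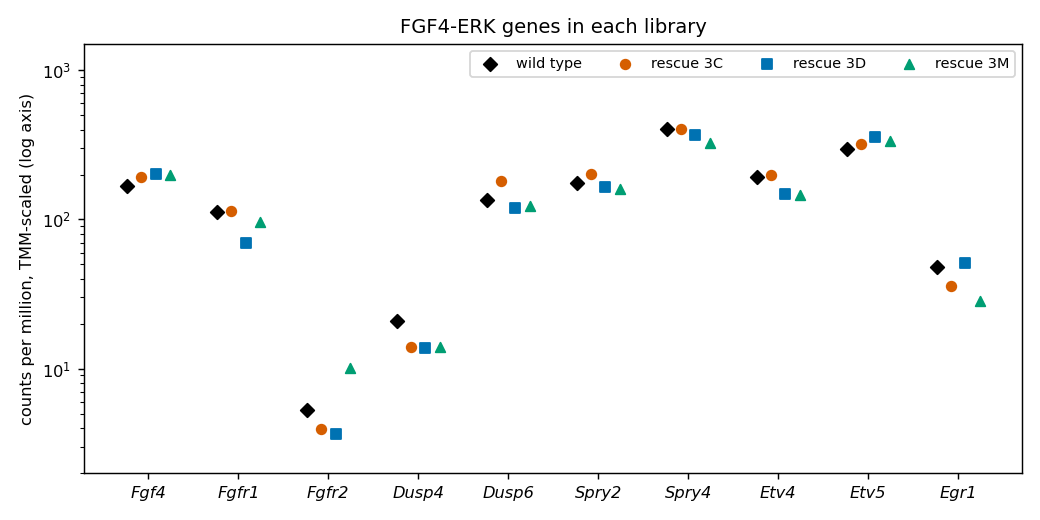
Level of each of the 10 genes in TMM-scaled CPM (vertical log axis) in wild type (diamonds) and rescue clones 3C (circles), 3D (squares) and 3M (triangles), 1 point per library. Dusp4 sits at 20.9 in wild type and at 13.8 to 14.1 in the clones, while Fgfr2 spans 3.64 to 10.1 among the clones.

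Fgf4, the ligand gene (chr7:144861386-144865245 in RefSeq GRCm38.p6, as for the positions that follow), was at 168 CPM in wild type and at 191, 201 and 198 CPM in clones 3C, 3D and 3M. These values rest on between 2580 and 3204 read pairs, and all 3 clones lay above wild type and close to each other, with a mean of 197 CPM ± 5.12 (SD, n = 3). The fitted log2 fold change was 0.23 (SE 0.07, 95% interval 0.06 to 0.40), which did not pass in edgeR (adjusted p = 0.373, and between 0.138 and 0.891 over the alternatives). With counting error alone, the 95% Poisson interval of wild type ran from 162 to 174 CPM and that of the lowest clone, 3C, from 184 to 199 CPM. These intervals cover neither culture nor library preparation. In bulk RNA such as this, fewer cells that express a gene and less of its RNA per cell cannot be told apart.

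Fgf4 was the main secreted FGF by level per length of transcript in all 4 libraries. Its share of the summed CPM per kilobase of the 18 secreted FGF genes was 74.8% in wild type, 76.5% in clone 3C, 62.4% in clone 3D and 62.0% in clone 3M. Clone 3C lay just above wild type and the other 2 clones lay well below, so the groups overlapped. The gene next in level was Fgf17, of the FGF8 subfamily, with 11.7 CPM per kilobase in wild type against 13.9, 28 and 27.7 in clones 3C, 3D and 3M. On the same scale Fgf4 stood at 52.6 in wild type and at 59.9, 63.0 and 62.0 in the clones. Fgf17 is on chromosome 14, and its fitted log2 fold change was 0.99 (SE 0.41, edgeR adjusted p = 0.493). Fgf15, the mouse counterpart of human FGF19, was at 2.97 CPM per kilobase in wild type and at 1.82, 5.55 and 4.71 in the clones, low in clone 3C and high in the other 2. The share of Fgf4 was thus low in the 2 clones in which Fgf17 and Fgf15 were high.

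Fgfr1, the gene of the receptor that ES cells mainly use (chr8:25518759-25575718), was at 112 CPM in wild type and at 114, 69.9 and 95.5 CPM in clones 3C, 3D and 3M. Clone 3D was low, clone 3C was level with wild type, and the groups overlapped. In the fit, the log2 fold change was −0.26 (SE 0.24, edgeR adjusted p = 0.744). Between clones 3C and 3D the level differed 1.63-fold. The coefficient of variation between clones was 23.7%, where the counts alone would give 2.76%. Leaving out clone 3D moved the log2 fold change to −0.09, and leaving out clone 3C moved it to −0.43. The unstranded count of Fgfr1 minus the strand-specific one lay between −130 and −62 read pairs per library, so some of its reads are shared with a gene on the other strand when strand is ignored.

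Fgfr2, the receptor gene that is known in the early embryo for primitive endoderm (chr7:130162451-130266808), was the lowest of the set. It had 101 read pairs in wild type against 53, 53 and 157 in clones 3C, 3D and 3M, or 5.30 CPM against 3.93, 3.64 and 10.1 CPM. Clone 3M was 2.78-fold above clone 3D and was the 1 clone above wild type. The log2 fold change of 0.18 (SE 0.60, edgeR adjusted p = 0.943) therefore took its sign from clone 3M and was −0.48 without it. The coefficient of variation between clones, 62.1%, was the largest in the set, and the counts alone would give 11.8%. Markers of primitive endoderm were measured beside it. The summed level of the 14 genes of that list was 704 CPM in wild type against 878, 724 and 794 CPM in clones 3C, 3D and 3M. Most of that sum was Lama1 and Sparc. Lama1 was at 310.4 CPM in wild type and at 369.6, 289.6 and 332.5 CPM in the clones. In wild type 8 of the genes were under 1 CPM. Over the list 3 genes were higher and 4 lower in all clones, where 28.7% and 28.4% of all tested genes were. Foxa2, Gata6 and Srgn, which are among these, did not pass the filter on low counts. Among its transcription factors, Gata6 had between 1 and 9 read pairs per library, Sox17 between 0 and 3 and Gata4 between 21 and 56. Sox7, also a factor of that lineage, lies on chromosome 14. Its level was 2.78 CPM in wild type and 4.82, 3.16 and 6.71 CPM in the clones. All 3 clones were higher and clone 3M was highest. Sparc, a matrix protein gene, was at 217 CPM in wild type and at 346, 286 and 307 CPM in the clones. The part of these markers in the level of Fgfr2 was not tested.

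The share of Fgfr1 among the receptor genes was lower in every clone than in wild type. Per length, Fgfr1 made up 82.8% of the summed level of Fgfr1 to Fgfr4 in wild type against 70.8%, 74.0% and 72.7% in clones 3C, 3D and 3M, with a mean of 72.5% ± 1.62 (SD, n = 3). With the longest transcript as the length in place of the union of exons, the shares were 86.0% in wild type against 77.5%, 77.4% and 75.7% in the clones. Fgfr3 was at 0.725 CPM per kilobase in wild type and at 1.63, 1.53 and 1.56 in the clones, or 99 read pairs against 157, 159 and 173. Its log2 fold change was 1.11 (SE 0.18, edgeR adjusted p = 0.189), with an unadjusted p of 0.000934. Without clone 3D it was 1.13 with an adjusted p of 0.00825 in edgeR, under the threshold. Fgfr4 stood at 1.11 CPM per kilobase in wild type and at 2.74, 0.601 and 1.09 in the clones, with clone 3C high and clone 3D low. It is on chromosome 13.

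**Figure D2:**
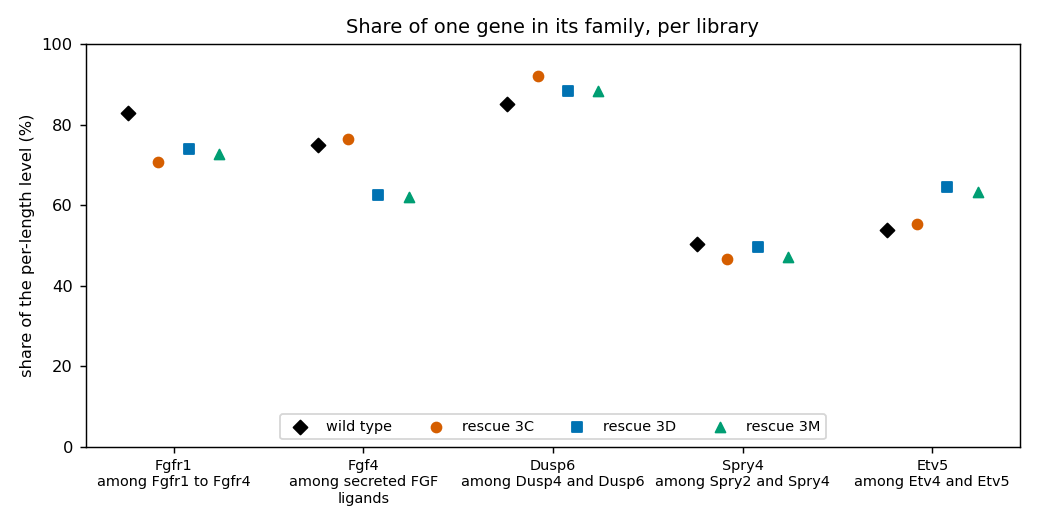
Share of a gene in the summed CPM per kilobase of its family (vertical axis, percent, from 0), with 1 point per library for wild type (diamonds) and rescue clones 3C (circles), 3D (squares) and 3M (triangles). The share of Fgfr1 among the receptors is 82.8% in wild type and at most 74.0% in a clone, and the share of Etv5 runs from 53.7% in wild type to 64.6% in clone 3D.

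Dusp4, a nuclear phosphatase that acts on ERK and on other MAP kinases (chr8:34807610-34819894), showed the largest fitted difference of the set. It was at 20.9 CPM in wild type and at 13.9, 13.8 and 14.1 CPM in clones 3C, 3D and 3M, from 399 read pairs against 187, 201 and 218. All 3 clones were lower than wild type and nearly equal. The log2 fold change was −0.59 (SE 0.12, 95% interval −0.89 to −0.28) with an unadjusted p of 0.00362, and it did not pass over all genes (edgeR adjusted p = 0.233, and between 0.0456, without clone 3D, and 0.802, without clone 3M). The clones agreed more closely than their counts alone would give, with a coefficient of variation of 0.972% against 7.05% from counting. The Poisson interval of wild type, 18.9 to 23.1 CPM, did not meet those of the clones, which reached up to 16.1 CPM.

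Dusp6, the cytoplasmic phosphatase that acts on ERK (chr10:99263231-99267489), was at 136 CPM in wild type and at 182, 120 and 123 CPM in clones 3C, 3D and 3M. Clone 3C was above wild type and the other 2 clones were below. Its fitted log2 fold change was 0.06 (SE 0.25, edgeR adjusted p = 0.957) and was −0.16 without clone 3C. Of the per-length level of both phosphatase genes, Dusp6 made up 85.0% in wild type against 92.0%, 88.3% and 88.4% in clones 3C, 3D and 3M, so its share was higher in all 3 clones.

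Spry2 and Spry4 encode Sprouty proteins, which block the path from receptors to Ras. Spry4 (chr18:38586247-38601347) had the most counts of the set, with 7760 read pairs in wild type, and stood at 407 CPM there and at 403, 369 and 326 CPM in clones 3C, 3D and 3M. Each clone was lower, clone 3C by less than the counting error. For Spry4 the log2 fold change was −0.15 (SE 0.12, edgeR adjusted p = 0.689), and −0.08 without clone 3M. Spry2 (chr14:105891947-105896819) was at 177 CPM in wild type and at 202, 164 and 160 CPM in the clones. As for Dusp6, clone 3C was above wild type and clones 3D and 3M were below. Its log2 fold change was −0.01 (SE 0.14, edgeR adjusted p = 0.985). Against the median of 0.35 over the 465 tested genes of chromosome 14, its log2 fold change came to −0.37. The part of chromosome 14 in this gene's level was not tested. Spry4 made up 50.3% of the per-length level of the pair in wild type against 46.7%, 49.7% and 47.2% in the clones, a mean of 47.9% ± 1.6 (SD, n = 3).

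Etv4 and Etv5 encode Ets transcription factors of the PEA3 group, which are induced by FGF. Etv5 (chr16:22381313-22439570) was at 296 CPM in wild type and at 322, 357 and 334 CPM in clones 3C, 3D and 3M. All 3 clones were above wild type, with a mean of 338 CPM ± 17.6 (SD, n = 3). The log2 fold change was 0.19 (SE 0.08, 95% interval −0.01 to 0.38, edgeR adjusted p = 0.492). Etv4 (chr11:101769747-101785310) was at 193 CPM in wild type and at 198, 148 and 146 CPM in the clones. Clone 3C was level with wild type and clones 3D and 3M were both lower. The log2 fold change of Etv4 was −0.24 (SE 0.18, edgeR adjusted p = 0.681), and without clone 3C it was −0.39 with an unadjusted p of 0.00275 and an adjusted p of 0.183. The share of Etv5 in the per-length level of the pair was 53.7% in wild type against 55.3%, 64.6% and 63.3% in clones 3C, 3D and 3M. Every clone was above wild type, clone 3C by little. The third gene of the group, Etv1, was at 14 CPM in wild type and at 16.2, 11.9 and 13.7 CPM in the clones, with overlap.

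Egr1, an immediate-early zinc finger factor (chr18:34861207-34864956), was at 48.1 CPM in wild type and at 36.0, 50.9 and 28.6 CPM in clones 3C, 3D and 3M. Clones 3C and 3M were lower than wild type and clone 3D was slightly higher. The log2 fold change was −0.32 (SE 0.29, edgeR adjusted p = 0.734). Without clone 3D it was −0.58 with an adjusted p of 0.0206, the lowest that any of the 10 genes reached under any alternative and still above the threshold. Without clone 3M it was −0.14. The level differed 1.78-fold between clones 3D and 3M.

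**Figure D3:**
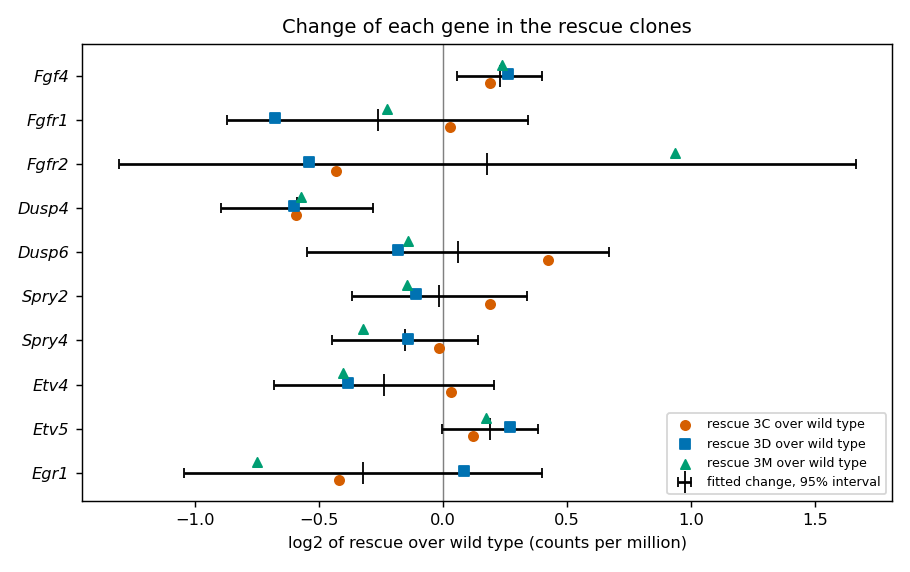
Log2 of rescue over wild type for each of the 10 genes (horizontal axis), with 1 point per rescue clone (circles 3C, squares 3D, triangles 3M) and the fitted change with its 95% interval (vertical tick and bar). The intervals of Fgf4 (0.06 to 0.40) and Dusp4 (−0.89 to −0.28) lie to one side of 0, and the other 8 include it.

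The 10 genes differed in how well the clones agreed. The coefficient of variation between clones was 0.972% for Dusp4, 2.60% for Fgf4 and 5.20% for Etv5, and between 10.6% and 17.7% for Spry4, Spry2 and Etv4. It was 23.7% for Fgfr1, 24.7% for Dusp6, 29.6% for Egr1 and 62.1% for Fgfr2. In every gene but Dusp4 it was above the mean counting error, which ran from 1.38% for Spry4 to 11.8% for Fgfr2. Clone 3C was the highest clone for 5 genes, namely Fgfr1, Dusp6, Spry2, Spry4 and Etv4, and the lowest for Fgf4 and Etv5. Clone 3D was the highest for Fgf4, Etv5 and Egr1, and clone 3M for Fgfr2 and Dusp4. The clones are 1 library each, so differences between clones and between libraries cannot be told apart.

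Levels between genes were compared per length, as CPM per kilobase of the union of exons. In wild type the order was Spry4 (85.6), Spry2 (84.7), Etv5 (72.2), Etv4 (62.3), Fgf4 (52.6), Dusp6 (43.3), Fgfr1 (11.3), Egr1 (10.7), Dusp4 (7.64) and Fgfr2 (0.513). The clone means of Spry4 and Spry2 were 76.9 ± 8.14 and 83.9 ± 11 (SD, n = 3). Within each clone Spry2 was the higher, at 96.6, 78.5 and 76.6 against 84.7, 77.6 and 68.5 in clones 3C, 3D and 3M. Fgfr1 and Egr1 had clone means of 9.43 ± 2.24 and 8.59 ± 2.54. Egr1 was the higher in clone 3D, and Fgfr1 in clones 3C and 3M. In the clones the mean of Etv5, at 82.4 ± 4.29, lay between those of the Sprouty genes. Within a clone it did not, since Etv5 was below both in clone 3C and above both in clones 3D and 3M. Fgf4, at 61.6 ± 1.6, had a higher mean than Etv4, at 52.8 ± 9.35, with overlap in clone 3C. With the longest transcript as the length, Etv4 in wild type came to 80.7 and passed Etv5, at 74.6, while Fgfr1 came to 22.1. The order of the clone means of Fgf4 and Etv4 also turned with that length, at 65.0 and 68.5. Within each clone their order stayed, with Etv4 higher in clone 3C and Fgf4 higher in clones 3D and 3M. Between the 6 most abundant genes and the other 4 there was a gap that no clone and neither length closed, since the lowest value of Dusp6 was 38.2 and the highest of Fgfr1 was 22.6.

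**Figure D4:**
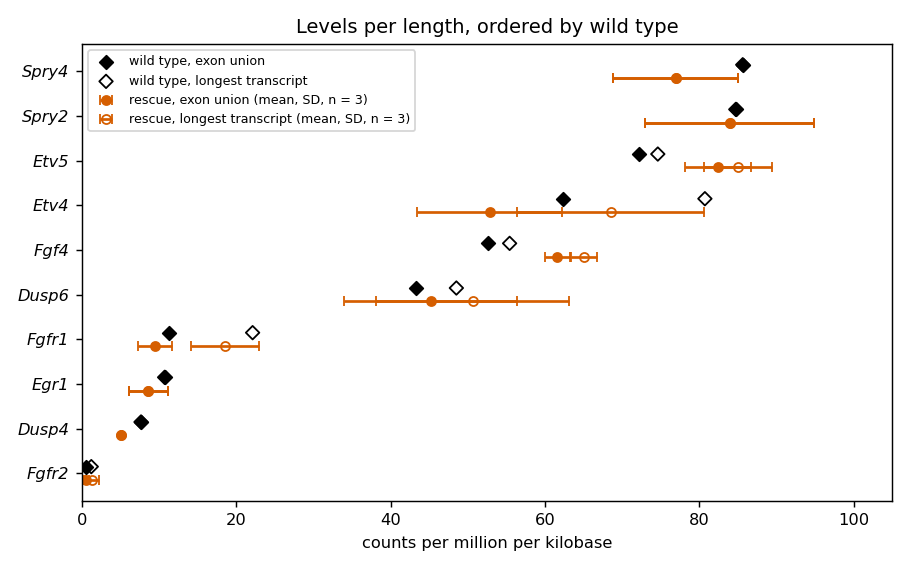
Level of each gene in CPM per kilobase (horizontal axis, from 0) in wild type (diamonds) and in the rescue clones (circles, mean with SD, n = 3), with the length taken as the union of exons (filled) or as the longest transcript (open). Spry4, Spry2, Etv5, Etv4, Fgf4 and Dusp6 lie above 38 and the other 4 genes below 23.

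The rest of the pathway was described with 8 gene lists, some of which hold genes of the set. No tested gene of any list passed the adjusted p of 0.01 in edgeR. The counts at an unadjusted p under 0.05 are to be read against 5.92% higher and 4.42% lower over all genes, and counts of genes with every clone on one side against 28.7% above and 28.4% below. These shares come from all 4 libraries. For counts without 1 clone no share over all genes is given, so those counts have nothing to be read against. Of 18 secreted FGF ligand genes 6 were tested, with 1 higher, Fgf4, none lower, and a median log2 fold change of 0.37, to which Fgf17 (0.99) belonged. Leaving out 1 clone moved that count to between 0 (without 3M) and 4 (without 3C) and the median to between 0.21 (without 3D) and 0.71 (without 3C). Fgf2 had no read pair in any library, Fgf5 had 3 in clone 3M and none elsewhere, and Fgf8 had at most 3. Of the 8 tested genes of receptors and co-receptors, 2 were higher and 1 was lower, with a median of −0.04. The higher ones were Fgfr3, given above, and Flrt2 (1.51, SE 0.44), a membrane protein that binds FGF receptors, with 17 read pairs in wild type against 42, 28 and 41 in the clones. The lower one was Fgfrl1 (−0.78, SE 0.28), a receptor without a kinase domain, with 79 read pairs in wild type against 40, 31 and 34 in the clones. Flrt1, a relative of Flrt2, had −0.52 and did not reach an unadjusted p of 0.05.

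Heparan sulphate, the sugar chain with which FGFs bind their receptors, was covered by 16 genes of its synthesis and its carrier proteins. In that list 2 were higher and none lower, with a median of 0.07. The higher ones were Extl3 (0.50, SE 0.14), an enzyme that starts the chain, and Ndst2 (0.36, SE 0.14), an enzyme that modifies it, and both lie on chromosome 14. Gpc6, a glypican on the same chromosome, had 1.11 (SE 0.46), and Gpc1, a glypican with all clones below wild type, had −0.18. Among 10 adaptor genes 1 was higher, Sos1 (0.23), the exchange factor that loads Ras, with a median of −0.01. Shc1 had 0.26, Frs3 −0.39 and Grb2 −0.11, each with all 3 clones on that side. Among the 15 genes of the Ras-Raf-MEK-ERK core, none was higher, and the median was −0.05. Rps6ka3 had 0.25, Shoc2 0.17 and Ksr1 −0.20, none at an unadjusted p under 0.05.

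Among the 18 tested feedback inhibitors, 4 of which are Dusp4, Dusp6, Spry2 and Spry4, 3 were higher and 1, Dusp4, was lower, with a median of −0.01. In 7 of the 18 all clones were above wild type and in 7 all were below, where the shares over all genes were 28.7% and 28.4%. Leaving out 1 clone moved the number of higher genes to between 0 (without 3M) and 4 (without 3D). The higher ones were Rasa1, Dusp9 and Il17rd, with Rasa1 on chromosome 13 and Il17rd on chromosome 14. Rasa1, a GTPase-activating protein for Ras, had 0.64 (SE 0.25), with 47.9 CPM in wild type against 79.2, 55.9 and 88.0 CPM in the clones, clone 3D being nearest to wild type. Dusp9, a phosphatase that acts on ERK, had 0.52 (SE 0.21), and Il17rd, a membrane inhibitor also known as Sef, had 0.31 (SE 0.10). The phosphatase gene Dusp10 had 0.52, Spred3 −0.44 and Dusp2 −1.27, the last from 14 read pairs in wild type and at most 6 in a clone, and none of these reached an unadjusted p of 0.05. Of 17 tested immediate-early genes 4 were higher and none lower, with a median of 0.07. The AP-1 genes Jun (0.75, SE 0.25) and Fosl2 (0.66, SE 0.20) were higher, from 7.08 and 8.23 CPM in wild type to means of 11.9 CPM ± 2.19 and 13 CPM ± 1.75 (SD, n = 3). The other two were Junb (0.41, SE 0.11) and Klf10 (0.19, SE 0.07). Egr1 had the most negative value of that list. Of 16 tested Ets and delayed target genes 2 were higher and none lower, with a median of 0.22, and all clones were above wild type in 9 and below in none, against 28.7% and 28.4% over all genes. Without clone 3D the number of higher genes was 7, with no share over all genes given for that fit. The higher ones were Bhlhe40 and Ets2, an Ets factor gene with 0.62 (SE 0.15). Bhlhe40, a transcriptional repressor, had 0.80 (SE 0.15, edgeR adjusted p = 0.201), with 39.1 CPM in wild type against 63.0, 64.5 and 77.3 CPM in the clones. Ccnd2, a D-type cyclin, had 1.43 (SE 0.60), with 12.3 CPM in wild type against 15.1, 41.0 and 43.0 CPM in the clones, so that clone 3C stood apart from the other 2.

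**Figure D5:**
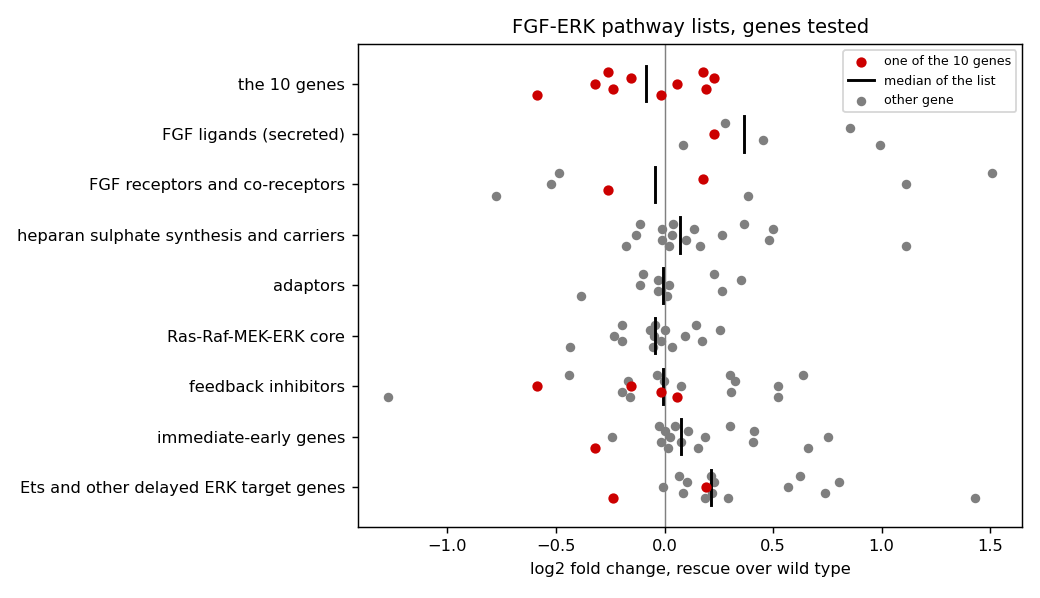
Fitted log2 fold change of rescue over wild type (horizontal axis) of every tested gene in the set and in 8 lists of the FGF-ERK pathway (rows), with genes of the set in red, other genes in grey and the median of each list as a black line. The medians run from −0.08 for the set to 0.37 for the secreted ligands.

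The cells were compared with markers of other cell types that could bear on these genes. Formative and primed epiblast markers, which rise when FGF signalling moves cells out of naive pluripotency, had a summed level of 443 CPM in wild type against 321, 265 and 294 CPM in the 3 clones. Of its 10 genes, 3 were lower in all clones, Dnmt3a, Dnmt3b and Pou3f1, and 2 were higher, Foxd3 and Sall2, where 28.4% and 28.7% of all tested genes were. The DNA methyltransferase gene Dnmt3a was at 167 CPM in wild type and at 78.3, 63.3 and 62.4 CPM in the clones, and Dnmt3b at 232 CPM and at 196, 140 and 180 CPM. The other 8 genes summed to 44.2 CPM in wild type and to 47.3, 62.2 and 50.9 CPM in the clones, higher in every clone. They did not rise together, since Foxd3 and Sall2 were higher in all clones and Pou3f1 was lower. Foxd3, the most abundant of them in wild type, was at 19.1 CPM there and at 27.7, 29.1 and 30.2 CPM in the clones. Pou3f1 was at 10.0 CPM in wild type and at 6.68, 7.01 and 6.07 CPM in the clones. Sall2 lies on chromosome 14. The part of these markers in the levels of Dusp4, Fgf4 or Etv5 was not tested. Neural progenitor markers summed to 45.0 CPM in wild type and to 52.1 to 65.4 CPM in the clones, and trophoblast markers to 77.9 CPM and to 86.9 to 115 CPM. Most of the neural sum was Nes, at 38.4 CPM in wild type and at 60.3, 35.6 and 48.2 CPM in clones 3C, 3D and 3M. Most of the trophoblast sum was Tfap2c, at 56.2 CPM in wild type and at 51.9, 61.4 and 79.5 CPM in the clones. Of 8 neural genes 1 was higher and 1 lower in all clones. Of 10 trophoblast genes 3 were higher and none lower, against the same shares over all genes. The 7 mesendoderm markers stayed under 3.5 CPM in sum, with Lhx1 at 0. The fibroblast list had Col3a1, Lum and Dcn at 0, and it was at 2410 CPM in wild type and at 1760 to 2540 CPM in the clones, nearly all of it Fn1, which ES cells also express. Of the 8 markers of 2-cell-like cells, 6 were at 0 in every library, and the other 2, Zscan4d and Usp17lc, had 2 and 1 read pairs, both in clone 3C.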

How the data were processed

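The authors extracted total RNA, depleted ribosomal RNA, made directional paired-end libraries, aligned them with STAR to mm10 and deposited raw counts of read pairs per gene. Which gene annotation they counted over is not given in the sources. The reverse-strand column was used, since the kit is directional. Reads on the opposite strand of the 10 genes numbered 0 to 11 per library, at most 1.85% of a gene's reads. Rows that name no gene, including unassigned read pairs (23.6% to 24.7%) and multimapping ones (7.85% to 8.21%), stayed out of library sizes and tests.

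Genes were tested with edgeR 4.0.16 in R 4.3.3, by its quasi-likelihood functions (glmQLFit with legacy off, glmQLFTest) after filterByExpr and TMM scaling, over 13267 genes, with Benjamini-Hochberg adjustment and the threshold of 0.01 used in the study. CPM values carry the TMM factors, which lay between 0.99 and 1.02. The fitted coefficient of variation between libraries was 11.3%. Median log2 fold changes by clone used a prior count of 2, and the log2 value of a single gene in a clone used none. Counting intervals are exact Poisson intervals at 95%. DESeq2 1.42.0, limma-voom (limma 3.58.1) and other scalings, filters and columns were alternatives, and edgeR's legacy method and lists without the genes of chromosomes 13 and 14 were added after seeing the data. Steps were tested on simulated counts. Positions came from RefSeq GRCm38.p6, where 22542 of 24054 symbols matched directly and 1352 by a synonym, and lengths from GENCODE for 23681 genes. Figures were drawn in Python 3.11.15 with matplotlib 3.10.9, and intervals computed with scipy 1.17.1.

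The genes of the set and the lists were chosen with earlier results of these data known. All 10 genes are named. Of each other list, genes called at an adjusted p of 0.01 are named, with the 2 largest rises and the 2 largest falls that all 3 clones share, the highest ES cell marker and the markers of other cells at 0. Further genes named for comparison (Ddx3y, Fgf2, Fgf5, Fgf8, Fgf15, Fgfr4, Etv1, Dnmt3a, Dnmt3b, Pou3f1, Foxd3, Sall2, Gata4, Gata6, Sox7, Sox17, Sparc, Lama1, Foxa2, Dab2, Srgn, Cubn, Nes, Pax6, Pax3, Tfap2c, Cdx2, Fn1, Zscan4d, Usp17lc, and Ndst2, Dusp9, Il17rd, Junb, Klf10, Ets2 and Rps6ka2, which make up short counts) were chosen after their values were seen. Some genes that this rule names are not reported here. P-values measure the spread between libraries of clones with one founder.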

Additional observations from a re-analysis of the deposited data

How the results depend on the processing

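None of the 10 genes passed an adjusted p of 0.01 under any alternative. Of 639 values recomputed, 581 kept the direction and call of a tested gene, or stayed within the spread of the clones or within 1.5 times a count. Of all values, 4 of 140 log2 fold changes of the set and 8 of 117 list medians took the other sign, and the cause was not tested. Those 4 all came from fits without 1 clone. The 140 hold a repeat of each gene's main value, at the adjusted p of 0.05, which could not change sign. Most of the rest were refits of the same 4 libraries. No paired analysis was possible because wild type has a single library and a number given in accession order does not tie it to a clone. Leaving out 1 clone at a time, the log2 fold change of Fgfr2 lay between −0.48 (without 3M) and 0.44, that of Dusp6 between −0.16 (without 3C) and 0.17, and that of Spry2 between −0.13 (without 3C) and 0.047 (without 3M), with 0.030 without 3D. No share over all genes is given for these fits. The genes of the set at an unadjusted p under 0.05 then numbered 0 to 2 higher and 1 to 3 lower. Without 3C they were Fgf4 and Etv5, with Dusp4, Etv4 and Fgfr1 lower, without 3D Fgf4, with Dusp4 and Egr1 lower, and without 3M Dusp4 alone. Fgf4 and Etv5 were the 2 higher genes with limma-voom and with TMM factors from outside chromosomes 13 and 14, and the number was 0 with DESeq2. Minus the median of its chromosome, Dusp4 came to −0.57 and Spry2 to −0.37. The median log2 fold change without 1 clone ran from −0.20 to −0.03 for the set, 0.21 to 0.71 for ligands, −0.36 to 0.17 for receptors and co-receptors, −0.029 to 0.028 for adaptors, −0.041 to −0.0088 for the Ras-Raf-MEK-ERK core with −0.019 without 3D, −0.11 to 0.026 for feedback inhibitors and −0.0049 to 0.17 for immediate-early genes. With TMM factors from outside chromosomes 13 and 14, the medians of adaptors and feedback inhibitors were 0.0048 and 0.0047. Without 3D, 420 genes were called in all, against 64 with DESeq2 and 1 in edgeR with all libraries, and in the lists 0 to 1 receptor (Fgfr3), 0 to 1 core gene (Rps6ka2, −0.74), 0 to 2 feedback inhibitors (Rasa1 and Dusp9) and 0 to 1 delayed target (Bhlhe40) were called over the 3 omissions. DESeq2 called 1 delayed target, Bhlhe40 (adjusted p = 0.00522). Counting error was above the spread between clones for Dusp4, at 7.05% against 0.972%, and below it for the other 9 genes.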
